A study of Rattus norvegicus with 69 samples.

Results

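The comparison was between 8 liver libraries labelled BWM and the 7 liver libraries of the sham group of batch A, together 15 of the 69 libraries of the series. Members were taken by the group and batch that the labels give, and all 8 BWM libraries belong to batch A, the larger of the 2 batches named in the labels. The labels give the strain (Wistar rat), the tissue and the group name for BWM, and neither the labels nor the study's methods spell out the name or say what treatment, diet, operation or age the group had. It is therefore called by its label throughout. Sham rats were adult males made obese with a high-fat diet and then given a sham operation. They could afterwards choose freely between a high-fat and a low-fat diet and were fasted overnight before the livers were frozen. The rats of the RYGB group (labelled Bypass, 11 libraries in batch A), which were made obese in the same way and given a Roux-en-Y gastric bypass, and of the Lean group (6 libraries), which the study's methods do not describe, were used only for direct comparison. What BWM rats share with sham rats beyond strain, tissue and batch cannot be stated, and the difference in treatment, feeding or age behind the comparison is unknown.

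The liver makes cholesterol from acetyl-CoA in a long chain of enzymes that runs over mevalonate, squalene and lanosterol. The transcription factor SREBP2, made from the gene Srebf2, is held in the endoplasmic reticulum while the membrane is rich in sterols. When sterols run low it is cut and moves to the nucleus, where it turns on genes of the chain together with genes for cholesterol uptake. A related factor, SREBP1c, works in the same way on fatty acid synthesis and is driven by insulin.

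Poly(A) RNA of each liver was sequenced, and the deposited values are estimated counts of reads per gene. Total counts per library were between 18898785 and 26248686, and 15028 of 38513 genes were kept by the filterByExpr function of edgeR for testing. Values below are CPM, counts per 1000000 counts after TMM scaling, with the mean ± SD over libraries, and fold changes are log2 of BWM over sham. A gene is said to have risen or fallen where edgeR's quasi-likelihood test gave an adjusted p under 0.05 over all genes tested. On this test 26 genes (0.173% of those tested) changed, of which 19 rose (0.126%) and 7 fell (0.0466%), and 12 (0.0799%) also changed by 1 or more on the log2 scale. At an unadjusted p under 0.05, 1198 genes (7.97%) were higher and 988 (6.57%) lower, and the median fold change over all genes was -0.01. Of the 15028 genes tested, 7725 had a negative fold change. In 22 genes (0.146%) every BWM library lay above every sham library, and in 19 genes (0.126%) every BWM library lay below, and 17 of these 41 genes were among the 26. The hepatocyte markers were the most abundant of the marker lists in every library, with 146617 to 197137 CPM in BWM and 155371 to 234898 CPM in sham summed over 10 genes. The count of 26 rested on single libraries: it was 339 without sham replicate 1 and 6 without sham replicate 7, and 7 in a fit that shared its estimate of spread among all 41 libraries of batch A.

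Genes of cholesterol synthesis were 8 of the 26 that changed. All 25 genes of the list were tested, 8 rose and 0 fell, and 22 were higher in BWM at an unadjusted p under 0.05. On the log2 scale the median change of these 25 genes was 0.93, against -0.01 over all genes. Among the genes that rose were Srebf2, Hsd17b7, Idi1, Sqle, Msmo1, Cyp51 and Fdps, and the list made up 8 of the 19 genes that rose anywhere. In bulk liver, fewer cells of a type and less RNA per cell cannot be told apart, and the same holds in the other direction for these rises.

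A promoter of 6 of these genes is in the RefSeq table of build GRCr8, and it is shown here from 250 bases before to 50 bases after the start of transcription because the members moved together. Capitals mark CCAAT on either strand (ATTGG where it lies on the other strand), the core letters of the site of NF-Y, a factor known to bind beside SREBP at genes of this pathway.
Srebf2 (GRCr8 chr7:115543057-115543356, plus strand): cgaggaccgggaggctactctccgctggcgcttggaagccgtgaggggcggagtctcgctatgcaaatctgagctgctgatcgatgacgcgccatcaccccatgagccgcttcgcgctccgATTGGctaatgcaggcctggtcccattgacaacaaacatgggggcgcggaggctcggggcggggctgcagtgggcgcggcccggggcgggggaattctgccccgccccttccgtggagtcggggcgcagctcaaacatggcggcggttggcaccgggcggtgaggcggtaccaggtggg
Idi1 (GRCr8 chr17:66547475-66547774, minus strand): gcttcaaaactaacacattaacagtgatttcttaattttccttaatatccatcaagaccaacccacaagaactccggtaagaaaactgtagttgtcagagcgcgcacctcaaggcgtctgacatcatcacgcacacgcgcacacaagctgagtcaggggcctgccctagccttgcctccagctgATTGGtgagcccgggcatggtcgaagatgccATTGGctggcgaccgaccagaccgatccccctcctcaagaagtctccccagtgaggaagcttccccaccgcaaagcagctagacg
Fdps (GRCr8 chr2:176804767-176805066, minus strand): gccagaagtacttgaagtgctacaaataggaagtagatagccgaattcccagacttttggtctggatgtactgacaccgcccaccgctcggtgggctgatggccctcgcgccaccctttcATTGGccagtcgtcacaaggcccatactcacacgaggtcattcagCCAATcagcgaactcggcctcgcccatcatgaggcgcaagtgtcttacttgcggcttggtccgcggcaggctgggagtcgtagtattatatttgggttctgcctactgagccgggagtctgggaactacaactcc
Cyp51 (GRCr8 chr4:30991443-30991742, plus strand): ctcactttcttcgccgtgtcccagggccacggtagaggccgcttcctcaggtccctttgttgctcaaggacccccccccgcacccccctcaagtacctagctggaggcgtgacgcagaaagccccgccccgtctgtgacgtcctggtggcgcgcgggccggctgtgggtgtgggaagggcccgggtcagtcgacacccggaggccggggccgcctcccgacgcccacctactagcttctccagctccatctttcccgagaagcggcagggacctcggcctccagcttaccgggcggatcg
Msmo1 (GRCr8 chr16:29746863-29747162, plus strand): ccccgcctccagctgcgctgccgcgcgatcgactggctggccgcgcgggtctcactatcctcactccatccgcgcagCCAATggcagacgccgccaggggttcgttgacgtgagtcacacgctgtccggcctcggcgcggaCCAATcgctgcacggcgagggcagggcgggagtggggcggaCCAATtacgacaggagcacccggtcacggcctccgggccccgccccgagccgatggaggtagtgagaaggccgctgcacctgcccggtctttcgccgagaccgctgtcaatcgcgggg
Hsd17b7 (GRCr8 chr13:84722705-84723004, minus strand): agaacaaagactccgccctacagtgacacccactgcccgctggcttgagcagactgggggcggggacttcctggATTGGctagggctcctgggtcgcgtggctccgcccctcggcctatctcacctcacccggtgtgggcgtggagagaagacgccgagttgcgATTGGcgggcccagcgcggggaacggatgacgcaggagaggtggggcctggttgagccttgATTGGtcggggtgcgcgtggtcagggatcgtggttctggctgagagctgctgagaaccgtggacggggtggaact
Of the 25 genes, 17 had a promoter in the table, and 14 of these 17 held CCAAT on at least 1 strand, against 37.5% of all 33469 promoters of the same length. Hsd17b7 and Msmo1 held 3 each, Fdps and Idi1 held 2, and Srebf2 held 1, while Cyp51, Acat2 and Dhcr7 held 0. TCACNCCAC, a strict form of the sterol regulatory element, was searched on both strands and was found in 0 of the 17 and in 1.12% of all promoters. CACGTG, the E-box that SREBP can also bind, was found in Insig1 and Sc5d, 2 of the 17, against 6.42% of all. None of these motifs is contained in another, and each match or missing match describes only these letters in this window.

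The regulator itself, Srebf2 (chromosome 7, 123381082 to 123438605 on Rnor_6.0, plus strand), had the lowest p of all genes. Its CPM was 34.9 at the lowest, 47.2 at the median and 60.9 at the highest in BWM, against 24.1, 28.8 and 31.2 CPM in sham. The 2 groups did not overlap, and BWM replicate 7 was the lowest of its group. The log2 fold change was 0.73 ± 0.09 (SE; edgeR, adjusted p = 0.00738), and Srebf2 remained past the threshold in all 27 alternatives run, with an adjusted p of at most 0.041.

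Of the 11 enzymes that lead to lanosterol, 3 rose, and all 11 had an unadjusted p under 0.05, with a median log2 fold change of 1.01. Sqle, the squalene epoxidase that takes the first oxygen-requiring step, had the largest fold change among the called genes whose average log2 CPM was 1 or more. It was measured at 6.90, 24.0 and 33.6 CPM (lowest, median, highest) in BWM, against 1.64, 2.80 and 6.97 CPM in sham. BWM replicate 7, at 6.90 CPM, was the only BWM library within the sham range. The log2 fold change was 2.63 ± 0.39 (adjusted p = 0.0139).

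Idi1, the isomerase that makes the building block DMAPP, was at 12.1, 33.0 and 47.1 CPM in BWM, against 6.99, 9.05 and 15.3 CPM in sham. Again only BWM replicate 7 lay within the range of sham, in which replicate 4 was highest. The log2 fold change was 1.72 ± 0.25 (adjusted p = 0.0129). Fdps, which joins these units to farnesyl diphosphate, averaged 229 ± 90.2 CPM in BWM and 86.6 ± 33.4 CPM in sham. Here 6 of 8 BWM libraries were above all sham libraries, with replicates 2 and 7 within their range. The log2 fold change was 1.41 ± 0.27 (adjusted p = 0.0459).

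The other 8 enzymes of this stretch did not pass the test. Hmgcs1, the synthase that makes HMG-CoA, gave a log2 fold change of 1.22 ± 0.26 (adjusted p = 0.0704), and Acat2, which joins the first acetyl-CoA units, 1.04 ± 0.23 (adjusted p = 0.0703). The kinases Mvk (0.54 ± 0.12) and Pmvk (0.54 ± 0.20), the decarboxylase Mvd (1.01 ± 0.25), the squalene synthase Fdft1 (0.65 ± 0.16) and the cyclase Lss (0.87 ± 0.18) also had positive values, with adjusted p from 0.0623 for Lss to 0.235 for Pmvk.

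Of the 9 enzymes after lanosterol, 3 rose and 7 had an unadjusted p under 0.05, with a median of 0.93. Cyp51, the lanosterol demethylase and the first step of this stretch, was at 75.1, 186 and 231 CPM in BWM, against 42.0, 50.8 and 98.2 CPM in sham. Replicates 2 and 7 of BWM were within the sham range and the other 6 above it, and the log2 fold change was 1.53 ± 0.25 (adjusted p = 0.0211). Msmo1, which removes methyl groups from the ring, was at 49.1, 92.8 and 127 CPM in BWM, against 22.2, 32.3 and 53.8 CPM in sham (log2 fold change 1.42 ± 0.23, adjusted p = 0.0201). Hsd17b7, the reductase of the same complex, averaged 15.9 ± 4.02 CPM in BWM and 7.43 ± 1.04 CPM in sham (log2 fold change 1.10 ± 0.16, adjusted p = 0.0129), and 7 of 8 BWM libraries lay above all sham libraries.

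Members late in the chain differed less. Nsdhl, the dehydrogenase of the demethylating complex, gave 0.26 ± 0.13 (adjusted p = 0.366), and Sc5d, the sterol desaturase, 0.04 ± 0.18 (adjusted p = 0.942). Sc5d was at 173, 207 and 271 CPM in BWM, against 122, 175 and 326 CPM in sham, so the BWM libraries lay inside the sham range. Its sign turned when single libraries were left out. The reductases Dhcr7 (0.78 ± 0.24) and Tm7sf2 (0.95 ± 0.28) and the isomerase Ebp (0.39 ± 0.14) had positive values with adjusted p from 0.175 to 0.221.

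**Figure D1:**
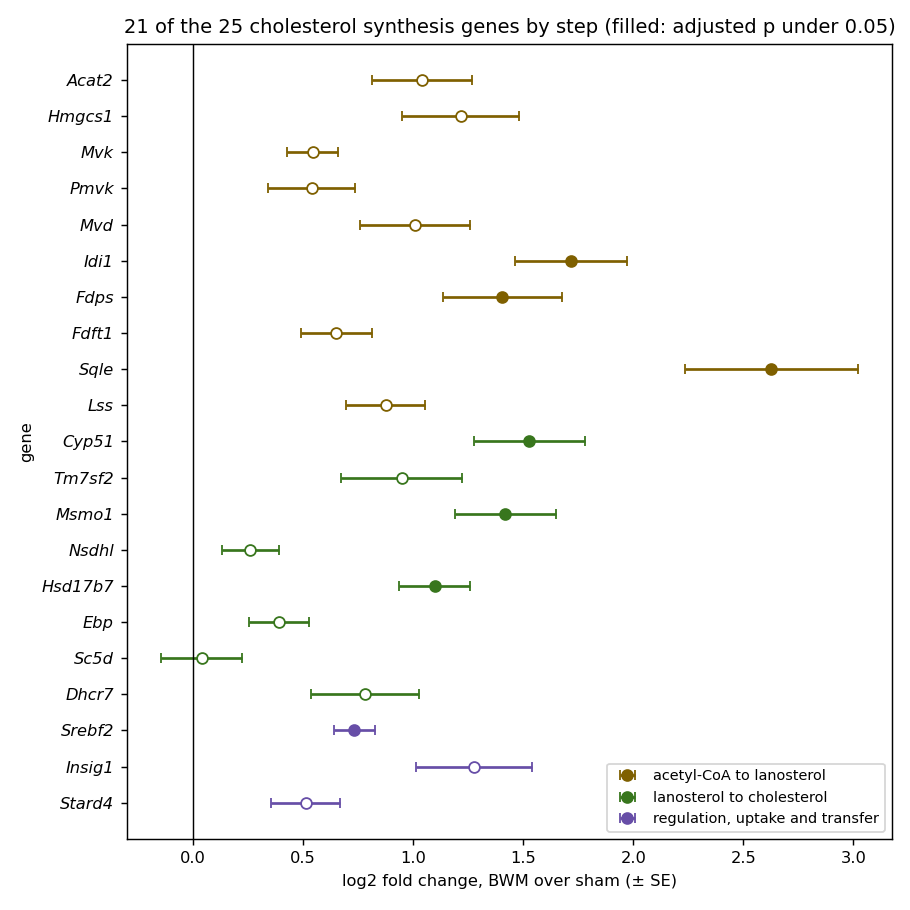
Log2 fold change of BWM over sham with its SE for 21 of the 25 cholesterol synthesis genes, from the first enzyme at the top to regulators at the bottom. Colours mark the stretch of the chain and filled points an adjusted p under 0.05; all 21 values are above 0, from 0.04 in Sc5d to 2.63 in Sqle.

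Insig1 and Stard4, of sterol regulation and transfer, did not pass the test. Insig1, which retains SREBP in the endoplasmic reticulum and is itself an SREBP target, did not overlap between the groups, with 82.7 to 211 CPM in BWM and 24.5 to 75.0 CPM in sham, but missed the threshold (1.28 ± 0.26, adjusted p = 0.0623). Stard4, a sterol carrier, had 0.51 ± 0.16 (adjusted p = 0.18).

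**Figure D2:**
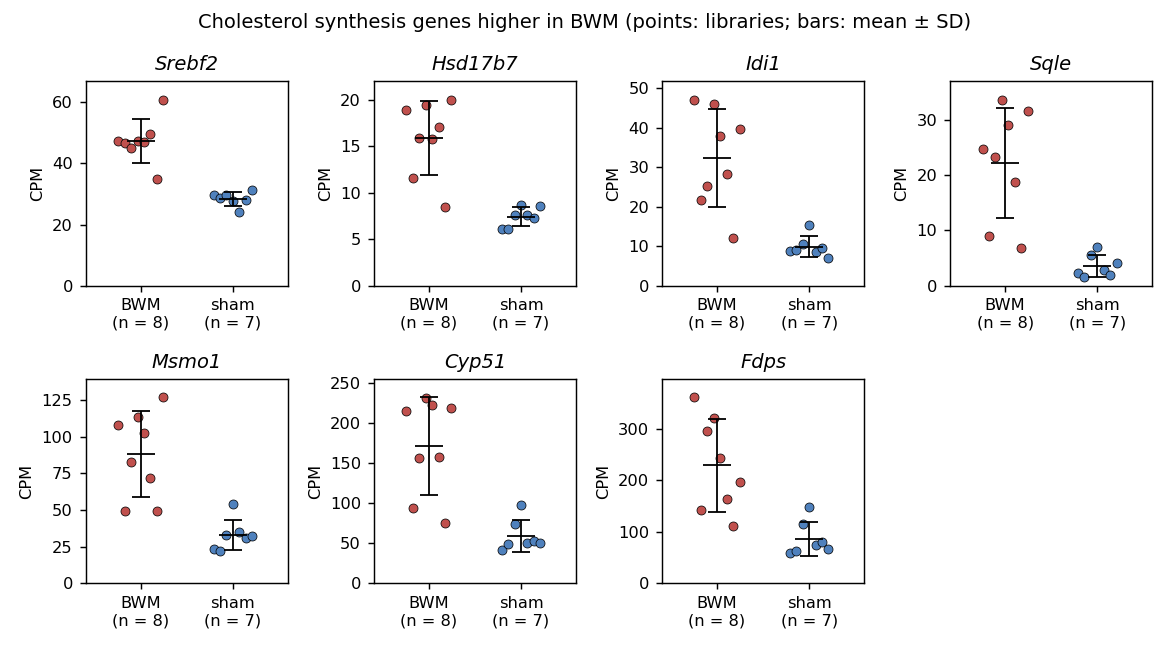
CPM of 7 of the 8 cholesterol synthesis genes that rose, in each of 8 BWM libraries (left) and 7 sham libraries (right); bars are mean ± SD. Srebf2 does not overlap, with 34.9 CPM or more in BWM against at most 31.2 CPM in sham, while the lowest BWM points of the other 6 genes reach the sham range.

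Rats of 1 group differed in the level of the pathway. The summed CPM of the 25 genes was 1393 in BWM replicate 7 and 1728 in replicate 2, between 2066 and 2786 in the other 6 BWM libraries, and between 1117 and 1772 in the sham libraries. BWM replicate 1 had 21 of the 25 genes above every sham library, and so had replicate 3, whereas replicate 2 had 8 and replicate 7 had 2. The same count over all tested genes was not made for single libraries, so no background share stands beside these counts. In sham, replicate 4 had the highest sum (1772) and replicate 1 the lowest (1117). The sums of 6 of the 8 BWM livers thus lay above all sham sums, and those of replicates 2 and 7 within the sham range. Without BWM replicate 7 the number of list members that rose was 11, without sham replicate 1 it was 13, without sham replicate 3 it was 5, and without sham replicate 5, 6 or 7 it was 4. In the fit of all 41 libraries of batch A only Srebf2 and Cyp51 remained called, while 21 of the 25 still had an unadjusted p under 0.05.

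Fatty acid synthesis, the neighbouring SREBP pathway, had no gene called among 22 tested, with a median of 0.10, and 6 genes were higher and 2 lower at an unadjusted p under 0.05. Fasn, the fatty acid synthase, was at 79.3, 175 and 320 CPM in BWM, against 32.1, 85.2 and 150 CPM in sham (1.18 ± 0.31, adjusted p = 0.149). Acly, which supplies cytosolic acetyl-CoA to both pathways, was higher by 0.86 ± 0.25 (adjusted p = 0.176). Scd, the stearoyl-CoA desaturase, lay on the other side, at 27.1, 202 and 721 CPM in BWM, against 358, 788 and 1642 CPM in sham (-1.70 ± 0.55, adjusted p = 0.205). In Scd, 7 of 8 BWM libraries lay below all sham libraries and the remaining library, BWM replicate 1, was within their range. Srebf1, the gene of SREBP1, had 167, 284 and 388 CPM in BWM, against 151, 245 and 304 CPM in sham.

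Genes for lipoproteins and lipid use gave 1 call. Apoa4, an apolipoprotein of triglyceride-rich particles, fell to 1266 ± 107 CPM in BWM, against 1825 ± 278 CPM in sham (-0.53 ± 0.09, adjusted p = 0.0367). All 8 BWM libraries, from 1143 to 1457 CPM, were below all 7 sham libraries, from 1476 to 2238 CPM. The call was lost in 15 of 27 alternatives, with adjusted p from 2.49e-05 to 0.9999 over them all. Of the 20 tested members of the list, 18 had a negative value and the median was -0.20. Apoa2 (-0.53 ± 0.16, adjusted p = 0.18) and Apoc3 (-0.36 ± 0.11, adjusted p = 0.189) had the next lowest p.

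The list of fatty acid oxidation, ketogenesis and PPARα targets had 0 of 27 tested genes called, with 21 negative values, 5 of them at an unadjusted p under 0.05, and a median of -0.22. Hadha of the mitochondrial trifunctional protein had -0.28 ± 0.09 (adjusted p = 0.181), with 197, 217 and 251 CPM in BWM, against 210, 278 and 315 CPM in sham. Of 38 respiratory chain genes, 36 had a negative value, 0 were called, 2 were lower at an unadjusted p under 0.05 and the median was -0.09. Over all genes, 7725 of 15028 had a negative value, and the part of transcript length in this list was not tested. Gluconeogenesis and insulin response (0 of 20 called, 4 higher and 2 lower at an unadjusted p under 0.05, median -0.01), bile acid synthesis and transport (0 of 19 called, 1 lower, median -0.0048) and the LXR targets, which respond to oxysterols (0 of 13 called, 1 higher, median -0.02), had medians near that of all genes. Cyp7a1, the rate-limiting enzyme of bile acid synthesis, was at 24.1, 99.6 and 269 CPM in BWM, against 56.3, 95.2 and 243 CPM in sham.

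**Figure D3:**
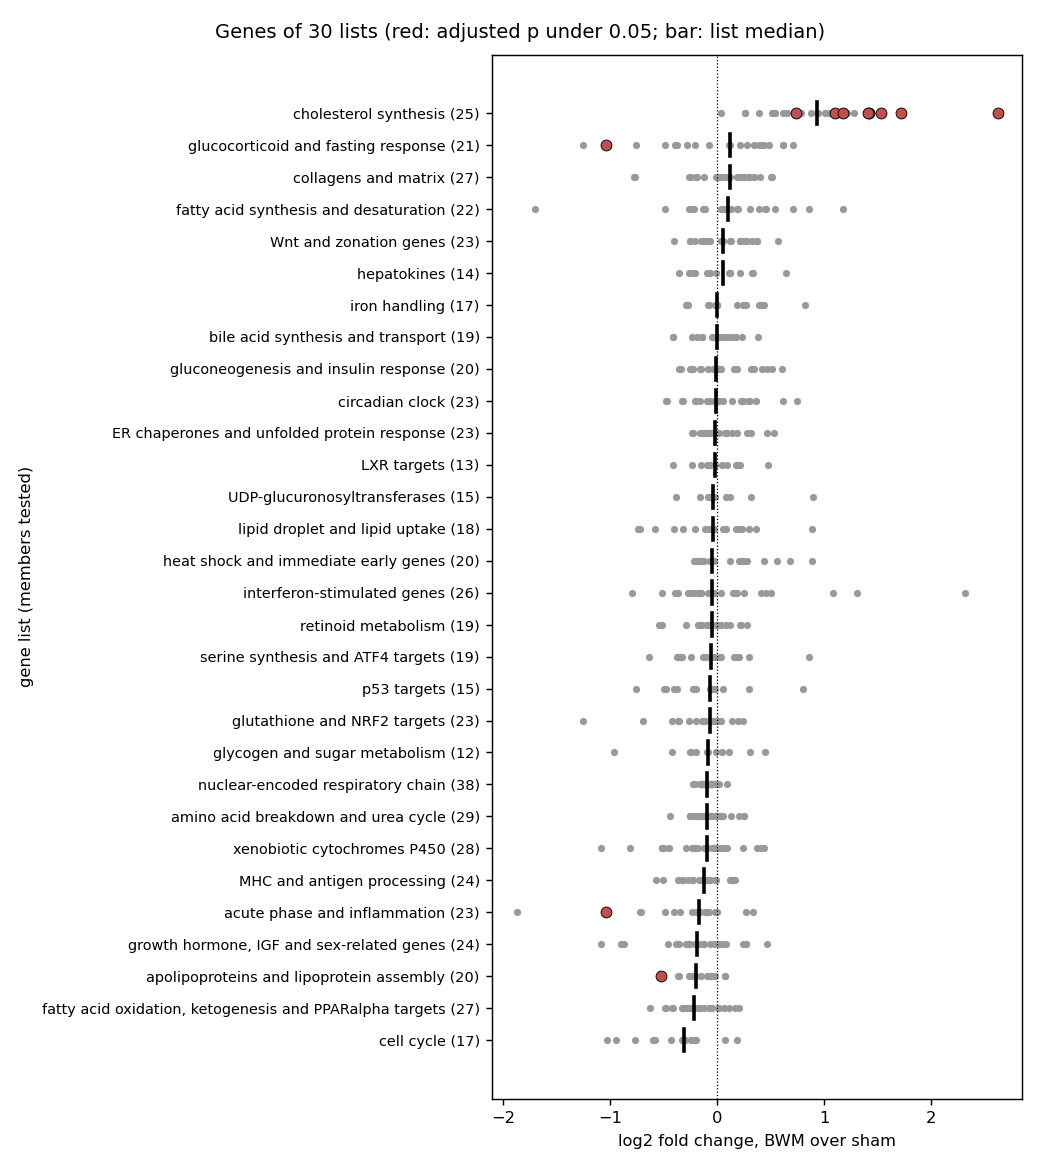
Log2 fold change of BWM over sham for every tested member of 30 gene lists, ordered by list median (black bar); red points had an adjusted p under 0.05. Cholesterol synthesis has a median of 0.93, and the other 29 medians lie between -0.31 and 0.12.

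Of the 30 pathway lists, 4 held a called gene, namely cholesterol synthesis, the apolipoproteins with Apoa4, and the acute phase and glucocorticoid lists, which share Lcn2. The remaining 26 held 0 called genes by edgeR; DESeq2 called 2 genes of fatty acid synthesis and 1 of the ER chaperones as higher and 1 P450 and 1 glutathione gene as lower, and limma-voom called 1 P450 as lower. The medians were -0.10 for 28 P450 genes and for 29 genes of amino acid breakdown, -0.13 for 24 MHC genes, -0.07 for 23 glutathione and NRF2 genes, -0.03 for 15 UDP-glucuronosyltransferases, 0.12 for 27 collagen and matrix genes, -0.19 for 24 growth hormone and IGF genes and -0.05 for 26 interferon-stimulated genes. Among drug-metabolizing P450 enzymes, Cyp2c7 came closest, with 1460, 2122 and 3034 CPM in BWM, against 2847, 3816 and 5194 CPM in sham (-0.82 ± 0.17, adjusted p = 0.0623), and 7 of 8 BWM libraries were below all sham libraries. Its reads can be shared with other members of the Cyp2c family, which limits how exactly it is counted. Nqo1, an NRF2 target, had -0.70 ± 0.17 (adjusted p = 0.108). In the cell cycle list 17 of 31 genes passed the filter, of which 0 were called, 15 were negative and 8 had an unadjusted p under 0.05. Mcm5 (-1.03 ± 0.31) and Mki67 (-0.95 ± 0.30), which mark DNA replication and dividing cells, were both low, with Mki67 at 0.316 to 1.16 CPM in BWM and 0.761 to 2.04 CPM in sham.

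Lcn2, the siderophore-binding lipocalin that rises in the acute phase, fell to 0.97 ± 0.21 CPM in BWM, against 2.00 ± 0.50 CPM in sham (-1.04 ± 0.19, adjusted p = 0.0367). The ranges, 0.632 to 1.33 CPM in BWM and 1.40 to 2.72 CPM in sham, did not overlap, though the gene was low in both. Of the 23 acute phase genes tested, 21 were negative, with a median of -0.17. Saa4 had -0.35 ± 0.12 (adjusted p = 0.211) and Cxcl1, a neutrophil chemokine, -1.87 ± 0.62 (adjusted p = 0.211). Cxcl1 was at 16.1 CPM in sham replicate 4, against a sham median of 1.72 CPM, and at 0.491 to 2.84 CPM in BWM.

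The other genes that fell were lower by less, apart from Tnfrsf21. Tnfrsf21, a death receptor of the TNF receptor family, was at 0.539, 1.23 and 1.85 CPM in BWM, against 2.04, 2.65 and 3.65 CPM in sham (-1.14 ± 0.20, adjusted p = 0.0353). Sdc1, a heparan sulfate proteoglycan that takes up lipoprotein remnants in the liver, averaged 115 ± 10.7 CPM in BWM and 154 ± 14.1 CPM in sham (-0.42 ± 0.08, adjusted p = 0.0457). Ctso, a cysteine protease of the lysosome, had -0.39 ± 0.07 (adjusted p = 0.0427), Vamp7, a SNARE of late endosomes, -0.40 ± 0.07 (adjusted p = 0.0451), and Ipo11, a nuclear import receptor, -0.45 ± 0.09 (adjusted p = 0.0459). In each of the 7 genes that fell, all BWM libraries lay below all sham libraries.

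**Figure D4:**
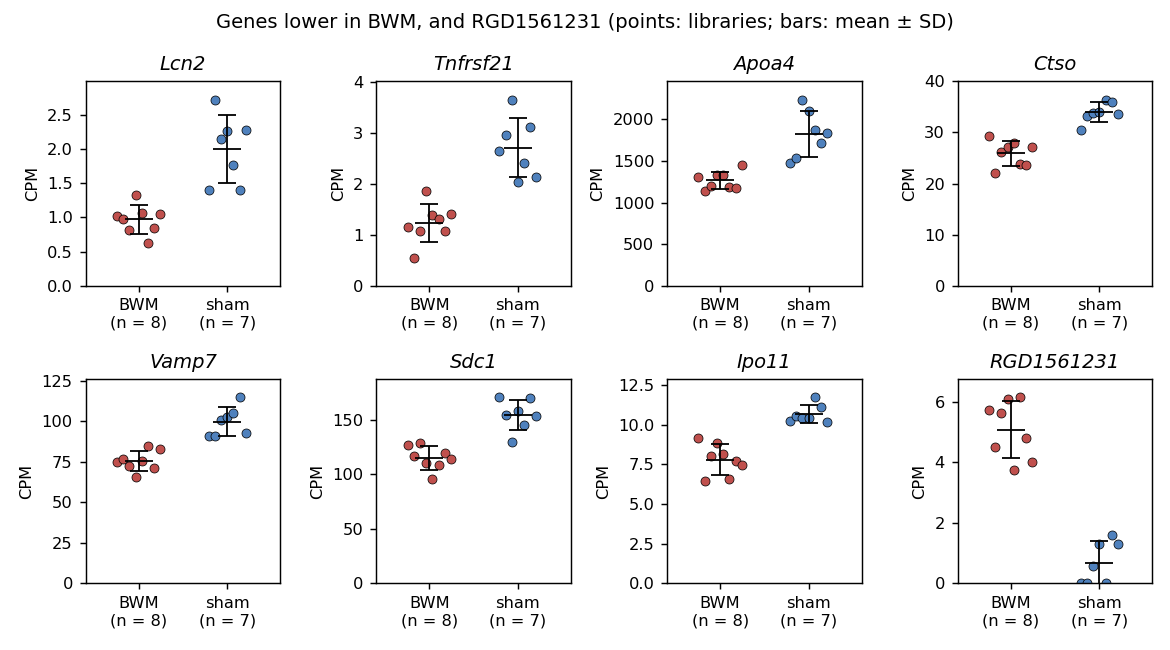
CPM of the 7 genes that fell and of RGD1561231 in 8 BWM libraries (left) and 7 sham libraries (right), with mean ± SD. In all 8 panels the groups do not overlap, from Apoa4 with at most 1457 CPM in BWM against at least 1476 CPM in sham to RGD1561231 with at least 3.75 CPM in BWM against at most 1.6 CPM in sham.

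Outside cholesterol synthesis, 11 genes rose. Kdm6b, a histone H3 demethylase, was at 33.0, 41.8 and 48.1 CPM in BWM, against 20.1, 26.3 and 31.0 CPM in sham (0.71 ± 0.11, adjusted p = 0.0129), and Fhod1, a formin that acts on actin filaments, at 10.5, 13.02 and 16.5 CPM in BWM, against 5.61, 6.89 and 10.3 CPM in sham (0.85 ± 0.13, adjusted p = 0.0129). Neither gene overlapped between the groups, although Fhod1 in sham replicate 1 came close to the lowest BWM library. Pear1, a receptor of platelets and endothelium, had 0.59 ± 0.10 (adjusted p = 0.0201). Adamts13, the protease of von Willebrand factor that liver stellate cells make, rose to 32.4 ± 6.25 CPM in BWM, against 19.3 ± 4.05 CPM in sham (0.75 ± 0.14, adjusted p = 0.0458). The semaphorin Sema6c (0.72 ± 0.14), the focal adhesion protein Tgfb1i1 (0.68 ± 0.13), the actin regulator Eps8l2 (0.64 ± 0.12) and the lncRNA LOC103690153 (0.75 ± 0.15) had adjusted p from 0.0442 to 0.0479.

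Slc30a3, a zinc transporter, was scarce, at 0.625 to 2.11 CPM in BWM and 0.0936 to 0.441 CPM in sham (2.08 ± 0.33, adjusted p = 0.0165). Cend1, a neuronal gene, was at 0.669 to 3.77 CPM in BWM and 0.0801 to 0.64 CPM in sham (2.58 ± 0.49, adjusted p = 0.0458). LOC100911402 had the same counts as Cend1 in 9 of 15 libraries (to within 0.005), and since reads that match both are divided between them, the genes cannot be told apart here and their values are uncertain. Both lie on chromosome 1 of Rnor_6.0, Cend1 at 214407072 to 214410069 and LOC100911402 at 213970163 to 213973224, with Eps8l2 53.6 kb before Cend1. RGD1561231, named after its values were seen, did not overlap between groups, at 3.75, 5.21 and 6.14 CPM in BWM, against 0, 0.562 and 1.6 CPM in sham, and missed the threshold (2.89 ± 0.58, adjusted p = 0.0623).

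Markers of other cell types gave no call. In the 12 marker lists edgeR called 0 genes, and 6 were higher and 6 lower at an unadjusted p under 0.05. Over all genes tested, 7.97% were higher and 6.57% lower at that threshold. DESeq2 called 2 endothelial genes as higher and limma-voom 1. The summed blood and erythroid markers were 112 to 830 CPM in BWM and 188 to 2170 CPM in sham (11 genes, 7 tested), with Hbb at 557 CPM in sham replicate 4 against a sham median of 70.3 CPM. The summed Kupffer cell and macrophage markers were 329 to 862 CPM in BWM and 366 to 767 CPM in sham. Of the 12 stellate markers 6 had a positive and 6 a negative value (median 0.04), with Pdgfrb at 0.48 ± 0.15 (adjusted p = 0.19) and Col1a1 at -0.78 ± 0.34 (adjusted p = 0.319). Of the 12 endothelial markers 9 had a negative and 3 a positive value, with a median of -0.16. Stab1 of sinusoidal endothelium (0.60 ± 0.15, adjusted p = 0.113) and Egfl7 (0.57 ± 0.16, adjusted p = 0.151) were the 2 with an unadjusted p under 0.05, and both were positive. Ifit1, an interferon-stimulated gene, reached 46.9 CPM in BWM replicate 5 against a BWM median of 1.03 CPM, and Irf7 reached 217 CPM there against a BWM median of 14.2 CPM. With BWM replicate 5 and sham replicate 4 both left out, a choice made after seeing the data, 7 genes were called, all of them higher in BWM, and 6 of them belonged to cholesterol synthesis. Longer transcripts had higher fold changes, with a median of 0.07 in 3248 genes with more than 5000 exonic bases, against -0.06 in 3555 genes with 1000 to 2000, and the part of transcript length in the single results was not tested beyond a refit with each library's length slope as a covariate, which called 22 genes, 10 of them in cholesterol synthesis.

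BWM was then set directly against RYGB and Lean in 1 fit of the 41 libraries of batch A, which tested 16552 genes. BWM differed from RYGB in 586 genes (3.54% of those tested) and from Lean in 311 (1.88%). These comparisons share the BWM libraries with each other and with the comparison to sham. Of the 25 cholesterol synthesis genes, 2, Dhcr7 (0.88, adjusted p = 0.0187) and Ebp (0.45, adjusted p = 0.0088), were higher in BWM than in RYGB, and 0 passed the test against Lean. The list medians were 0.29 for BWM over RYGB and 0.13 for BWM over Lean, and 0.92 for BWM over sham in the same fit. Set against the same sham libraries in that fit, RYGB had a list median of 0.54 and Lean 0.73. Of the 25 genes, 2 rose in BWM over sham, 6 in RYGB over sham and 3 in Lean over sham. Positive values were found in 25, 22 and 25 genes, so the higher level was not particular to BWM. Sqle was at 22.3 ± 10.1 CPM in BWM, 19.4 ± 17.8 CPM in RYGB, 13.9 ± 6.16 CPM in Lean and 3.66 ± 2.00 CPM in sham. Srebf2 was at 47.7 ± 6.77 CPM in BWM, 44.3 ± 11.1 CPM in RYGB, 36.8 ± 3.44 CPM in Lean and 28.8 ± 2.44 CPM in sham. BWM did not pass the test against RYGB or Lean in either gene (adjusted p = 0.888 and 0.595 for Sqle, 0.72 and 0.147 for Srebf2), which does not show that the levels were alike.

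Other genes passed the test between BWM and RYGB or between BWM and Lean. Igfbp2, an IGF-binding protein of the liver, was at 2.41 ± 1.59 CPM in BWM, 64.7 ± 41.9 CPM in RYGB and 2.03 ± 2.24 CPM in sham (BWM over RYGB -4.73, adjusted p = 9.37e-07). Hamp, the gene of the iron hormone hepcidin, was at 964 ± 390 CPM in BWM, 91.1 ± 88.0 CPM in RYGB and 844 ± 232 CPM in sham (BWM over RYGB 3.40, adjusted p = 8.67e-06). Both were chosen as counter-examples from the lists, and in both the BWM mean was within 1 sham SD of the sham mean. Apoa4 was at 1275 ± 105 CPM in BWM, 1158 ± 208 CPM in RYGB, 1873 ± 190 CPM in Lean and 1843 ± 279 CPM in sham, and was lower in BWM than in Lean (-0.55, adjusted p = 0.0124). Scd was at 259 ± 225 CPM in BWM, 520 ± 542 CPM in RYGB, 2923 ± 947 CPM in Lean and 836 ± 464 CPM in sham. It was lower in BWM than in Lean (-3.50, adjusted p = 0.00157) and did not pass the test against RYGB (adjusted p = 0.38). Lcn2 was at 0.979 ± 0.218 CPM in BWM and 3.21 ± 2.28 CPM in RYGB (-1.71, adjusted p = 0.000638).

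**Figure D5:**
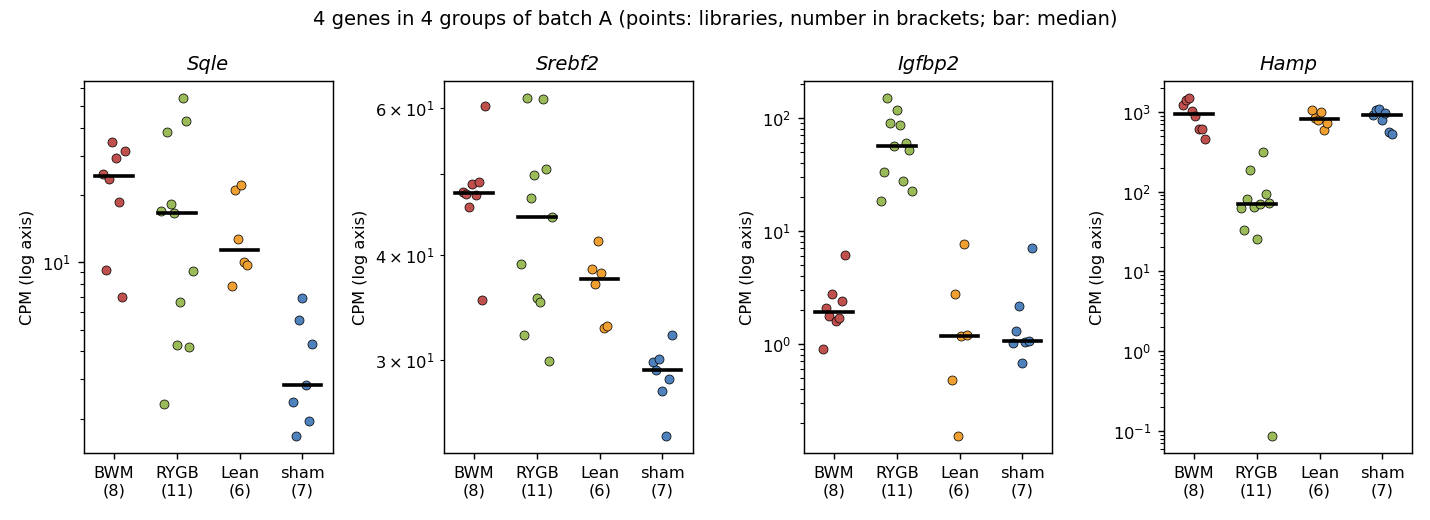
CPM on a log axis of Sqle, Srebf2, Igfbp2 and Hamp in each library of BWM (8), RYGB (11), Lean (6) and sham (7) of batch A, with the group median. Srebf2 averages 47.7 CPM in BWM against 28.8 CPM in sham, and Igfbp2 averages 2.41 CPM in BWM against 64.7 CPM in RYGB.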

How the data were processed

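Liver poly(A) RNA of 8 BWM and 7 batch A sham rats was compared, after a stranded TruSeq library and single-end sequencing. The authors made base calls with bcl2fastq 2.20.0.422, trimmed reads with cutadapt 2.5, aligned them to Rnor_6.0 with STAR 2.7.2b and made estimated counts per RefSeq gene with featureCounts 1.6.4 (strand-specific, exons), which were deposited without normalization. Reads matching several places or genes were divided among them, so 16.8% of the values in the 15 libraries were not whole numbers; such genes are less certain.

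After rounding, edgeR 4.0.16 was run under R 4.3.3 (filterByExpr, TMM, robust quasi-likelihood test, group as the only term, p-values adjusted by Benjamini and Hochberg over all genes tested). The fit was of the 15 libraries alone; the comparisons with RYGB and Lean were made in 1 fit of the 41 batch A libraries. Here a gene was called on an adjusted p under 0.05 alone. The study used DESeq2 and required, besides this, an absolute shrunken log2 fold change of at least 1; genes past both are counted separately. The p-values set the group difference against the spread between these libraries and take the libraries as independent. The labels do not say how rats were housed, so this independence could not be checked. The 15 libraries differed from one another by more than sampling noise.

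The members, the 30 pathway lists, the 12 marker lists and the rule for named genes were chosen with earlier results of these data known. The rule takes the 12 largest changes in each direction past both thresholds whose average log2 CPM was 1 or more, the 10 lowest p, called members of each list (otherwise the 2 lowest p), counter-examples and defining markers. Lists are described by counts and medians over all members; single values of some members are not reported here. Chromosomes and promoters come from the RefSeq tables; all deposited columns were assigned to a sample. The test was checked on simulated data. Alternatives were DESeq2 1.42.0, limma 3.58.1 voom with quality weights, DESeq2 size factors, no filter, unrounded counts, no robust estimation, larger fits, 1 surrogate variable (sva 3.50.0), a replicate block, leaving out each library and, added after seeing the data, a length-slope covariate and leaving out BWM replicate 5 with sham replicate 4.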

Additional observations from a re-analysis of the deposited data

Results flagged for a closer look

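Of 24 sets of values (12 genes in each of the 2 groups) examined with Dixon's test on log2 CPM, 1 had a library far from the others, where chance flags about 1 in 20 sets. Tnfrsf21 was at 0.539 CPM in BWM replicate 2, and the next lowest BWM library was at 1.07 CPM. BWM replicate 2 was also, with replicate 7, 1 of the 2 BWM libraries with the lowest summed CPM of the cholesterol synthesis genes, and no cause was tested.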

How the results depend on the processing

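The direction of all 26 called genes was the same in all 27 alternatives, but the calls were not: in 417 of 702 combinations of gene and alternative the gene kept its side of the threshold, and in 285 it lost it. Against 26 genes called (19 higher, 7 lower, 12 that changed by 1 or more on the log2 scale), DESeq2 gave 235 (148, 87, 5), limma-voom with quality weights 111 (87, 24, 24), no filter 17 (3 lower), the fit of all batch A libraries 7 (3, 4, 6), the fit of all 69 libraries with a batch term 7 (6, 1, 6), 1 surrogate variable 49 (29, 20), and the fit without BWM replicate 5 and sham replicate 4 7 (7, 0, 5). The shrunken fold changes of DESeq2 make its fold threshold stricter. Of the 26 genes, 2 were called in the fit of all batch A libraries and 6 in that of all 69; both also called Krt14, which did not pass the filter in the 15 libraries. The number of cholesterol synthesis genes called, 8, was 16 in DESeq2 and 2 in the fit of all batch A libraries, while 20 to 23 had an unadjusted p under 0.05 in every alternative.

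Leaving out each library in turn gave 6 to 339 called genes (6 to 277 higher, 0 to 62 lower, 3 to 43 by 1 or more on the log2 scale) and 4 to 13 in cholesterol synthesis. The count moved by over 1.5 times without BWM replicate 2 (13), 3 (13), 4 (13), 5 (17) or 6 (12), and without sham replicate 1 (339), 2 (17), 3 (10), 4 (16), 5 (9), 6 (10) or 7 (6). Of the genes not called, Sc5d turned negative without single libraries (range -0.0602 to 0.173), and the cause was not tested. BWM versus Lean gave 489 calls with DESeq2 in place of 311. With the replicate number as a block, 23 genes were called, 11 of them among the 26, and 9 in cholesterol synthesis. Whether the numbers pair the libraries is not stated in the labels, and the values did not settle it. Deviations from the group means correlated between -0.15 and 0.27, over 0.1 in 3 of 7 pairs. Of 7 BWM libraries, 3 correlated best with the sham library of their own number.

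With total counts of at least 18898785 per library, genes near or under 1 CPM in either group rest on few reads there. Cend1, Slc30a3, Lcn2 and Tnfrsf21 are examples. A change that was not called is not shown to be absent.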

Other observations

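Genes outside the lists also separated the 2 groups completely without passing the adjusted threshold. Rhoa, a small GTPase of the cytoskeleton, was at 129 to 159 CPM in BWM and 160 to 195 CPM in sham, and Ctsb, a lysosomal protease, at 294 to 393 CPM in BWM and 399 to 486 CPM in sham. Mef2d, a transcription factor, was at 26.0 to 56.3 CPM in BWM and 19.5 to 25.9 CPM in sham, and Metrnl, a secreted protein, at 1.85 to 2.74 CPM in BWM and 1.16 to 1.80 CPM in sham. These 4 genes were chosen after their values were seen.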
